A study of Rattus norvegicus with 6 samples.

Results

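Splicing factors and heterogeneous nuclear ribonucleoproteins (hnRNPs) were examined in the diaphragm of normal and diabetic rats, on 6 oligonucleotide arrays with 1 array per rat. The genes were chosen by symbol alone, without regard to signal. A probe set was taken if it was annotated to exactly 1 gene whose symbol began with Srsf, Hnrnp, Snrp, Sf3, U2af or Prpf or with the older forms Sfrs and Hnrp. This gave 51 genes with 71 probe sets, out of 10411 genes with 12783 single-gene probe sets on the array. They fell into 16 hnRNPs, 10 PRPF factors, 8 snRNP proteins, 8 SF3 subunits, 7 SR proteins and 2 U2AF subunits. The selection thus held members of every class, but not every known gene of each. Genes on the array only through probe sets shared with another gene, such as Hnrnpk and Srsf3, were left out by this rule.

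All animals were male Wistar rats. The diabetic group (3 rats) had received streptozotocin, a toxin of the insulin-producing beta cells, as 1 intraperitoneal injection of 60 mg/kg in citrate buffer at 8 weeks of age, and the normal group (3 rats) the buffer alone. No insulin was given, and the diaphragm was taken 4 weeks later after an overnight fast in both groups, with RNA from the left costal hemidiaphragm. Streptozotocin diabetes is a chemical model of insulin deficiency, and an action of the toxin on muscle cannot be told apart from diabetes in this design.

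Splicing removes introns from a precursor RNA. It is carried out by the spliceosome, which is assembled from small nuclear ribonucleoproteins (snRNPs). Each is a short RNA with a ring of Sm or Sm-like (Lsm) proteins and a few specific proteins. U2AF and the SF3 complexes mark the 3′ end of the intron and the branch point, and the PRPF factors, named after yeast genes of precursor RNA processing, belong to the later complexes or to the snRNPs themselves. SR proteins mostly promote the use of exons, many hnRNPs oppose it, and skeletal muscle is a tissue in which the choice of exons in contractile protein genes is developmentally regulated.

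Values are MAS 5.0 signals, intensities on a linear scale that the authors scaled per array. The median signal of an array ran from 167.1 to 180.5, and the correlation of log2 signals between arrays from 0.901 to 0.973. The brightest probe set on average stood for each gene, and a gene was tested if this mean exceeded 105.8, the 40th percentile of all probe sets. A gene was said to rise or fall if it passed an adjusted p of 0.05 in a moderated test (limma) across all 9519 probe sets that exceeded this level. Ratios divide the mean signal of the diabetic by that of the normal arrays. Probe sets differ in how strongly they hybridise, so each gene is compared only with itself.

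The 7 skeletal muscle markers on the array were all above the filter and none passed the test, with a summed signal of 170900 to 211400 on the normal and 149900 to 218000 on the diabetic arrays. Of 6 fibroblast markers, 4 fell (Col1a1, Col1a2, Col3a1 and Lum), and the sum of the 6 was 43160 to 47340 in normal and 21920 to 23050 in diabetic muscle. The endothelial receptor gene Kdr rose and the smooth muscle gene Acta2 fell, and no marker of adipocytes, macrophages, lymphocytes, red blood cells, nerve or mesothelium passed. Several of these were below the filter and could not pass, namely Cd3e, Cd3g and Cd79b of lymphocytes, Lep and Plin1 of adipocytes and Slc4a1 of red blood cells, as were all 5 liver markers. The part of these cell markers in the results below was not tested, and fewer cells of a type and less RNA per cell cannot be told apart in whole muscle. Ratios of 3′ to 5′ and to middle probe sets of the β-actin and GAPDH controls did not separate the groups (2-sided exact permutation tests, p = 0.5 to 1, with 0.1 as the lowest p possible). The levels varied between arrays, from 1.27 to 4.02 for GAPDH 3′ to 5′ and from 1.74 to 3.09 for β-actin 3′ to middle. Both reached above the ranges that the study reported. So did β-actin 3′ to 5′, at up to 2.27, and GAPDH 3′ to middle, at up to 2.1, and the reason was not tested. The spike-in controls were high on 1 array, at 1.96 times the geometric mean on diabetic replicate 3 against 0.833 to 0.889 times on the others.

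Of the 51 genes, 47 were tested, and 1 passed: Hnrnpf was higher in diabetic diaphragm. No gene of these classes fell. The share that passed, 2.13%, compares with 7.01% of all 7080 tested genes, of which 3.46% rose and 3.55% fell. The signs of the remaining differences were unequal, since 34 of the 47 genes (72.3%) had a positive log2 fold change against 50.8% of all genes. The median log2 fold change of the 47 genes was 0.16, with values from -0.37 to 0.91, and that of all genes was 0.0080. A gene that missed the threshold is not shown to be unchanged, because with 3 rats per group the 95% intervals of the log2 fold changes were wide.

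In 13 of the 47 genes every diabetic array lay above every normal array, a share of 27.7% where 15.9% of all genes did so. In 1 gene, Hnrnpa2b1, every diabetic array lay below, against 14.9% of all genes. Of these, 10 genes also had a ratio of means of at least 1.3 upward, where the share of all genes was 11.6%, and the 1 downward gene had a ratio of at least 1.3, where it was 10.8%. At an unadjusted p under 0.05, 13 members were higher (12.8% of all genes) and 1 was lower (11.9% of all genes).

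**Figure D1:**
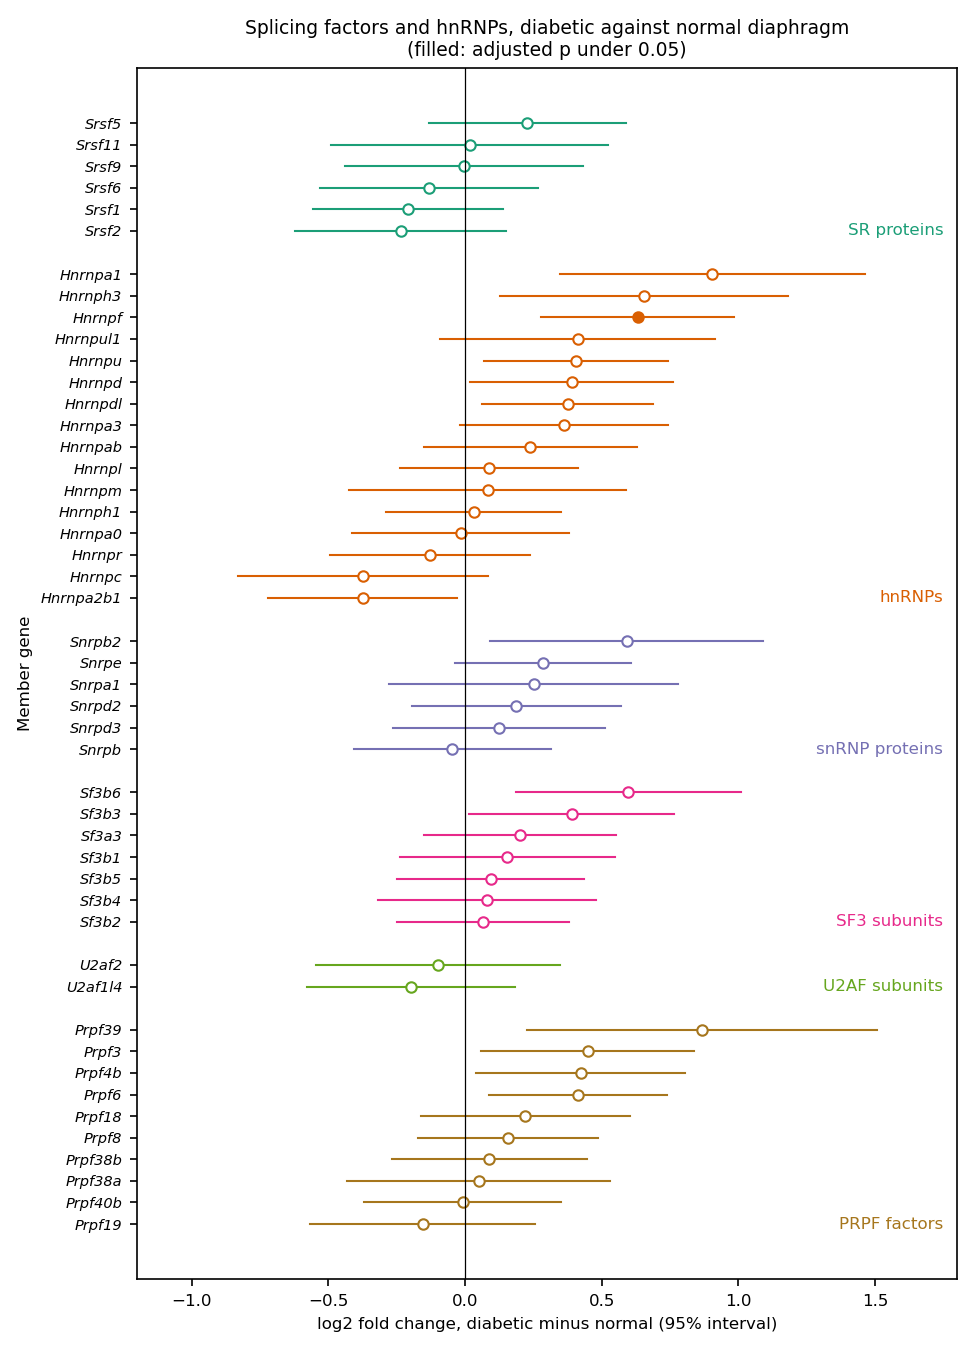
Log2 fold change (diabetic over normal, horizontal axis) of the 47 tested genes by class, with 95% confidence intervals from the moderated test; a filled point passed an adjusted p of 0.05. Hnrnpf is the only filled point, and most hnRNP, SF3 and PRPF points lie to the right of 0.

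The classes differed in where their members lay, although the difference between classes was not tested. The median log2 fold change was 0.30 for the 16 hnRNPs, 0.22 for the 6 snRNP proteins tested, 0.19 for the 10 PRPF factors and 0.16 for the 7 SF3 subunits. It was -0.07 for the 6 SR proteins and -0.15 for the U2AF pair. By the mean over probe sets of a gene, the hnRNP median was 0.23, close to 0.22 for the snRNP proteins. It was then 0.20 for the SF3 subunits and 0.19 for the PRPF factors, so the order of these classes was not firm. With 1 array left out the SR median ran from -0.22, without diabetic replicate 2, to -0.017, without diabetic replicate 3, and the PRPF median was lowest, at 0.10, without diabetic replicate 2. The U2AF median was -0.081 without normal replicate 2. The genes that were not SR proteins had a positive sign in 32 of 41 cases, the SR proteins in 2 of 6.

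The classes were also summarised on each array as the median, over a class, of log2 signal relative to the normal mean. For all 47 genes this was -0.025, 0.087 and -0.039 on the normal and 0.16, 0.23 and 0.20 on the diabetic arrays. All diabetic arrays thus lay above all normal ones, and for the hnRNPs, SF3 subunits and PRPF factors they did so as well. The hnRNP medians were -0.060, 0.13 and -0.089 in normal and 0.23, 0.34 and 0.27 in diabetic muscle. For the SR proteins they were 0.0012, -0.0088 and -0.00081 in normal and -0.19, 0.078 and -0.27 in diabetic muscle, with diabetic replicate 2 above and the other two below the normal arrays. The U2AF pair lay at -0.11, -0.14 and -0.20 on the diabetic arrays, below all normal ones, although each of its genes overlapped. Among the arrays, diabetic replicate 2 was the highest for 15 genes and diabetic replicate 3 for 14, and normal replicate 3 was the lowest for 15. Such counts were not made for all genes. The medians of all genes were 0.00096, 0.011 and 0.00046 on the normal arrays. They were 0.0075, 0.056 and -0.015 on the diabetic arrays, so diabetic replicate 2 was the highest there too.

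**Figure D2:**
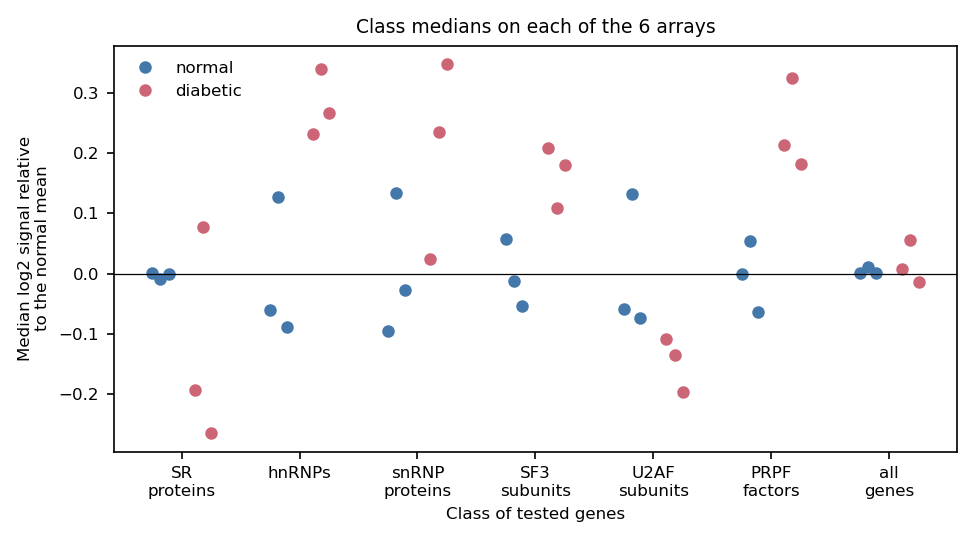
Median log2 signal of each class on each array, relative to the mean of the 3 normal arrays (vertical axis, log2 units); each point is 1 rat, and the last column is the median of all 7080 tested genes. The hnRNPs lie at -0.089 to 0.13 on the normal and at 0.23 to 0.34 on the diabetic arrays, and the SR proteins and snRNP proteins show no such separation.

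Hnrnpf encodes an hnRNP of the F/H family, which binds runs of guanine in precursor RNA and can favour or repress a nearby splice site. Its signals were 932, 967 and 860.5 in the normal and 1429.8, 1639 and 1231 in the diabetic muscles. The means were 919.7 ± 54.2 and 1433 ± 204 (SD, n = 3), a ratio of 1.56, with a log2 fold change of 0.63 ± 0.16 (SE), a 95% interval of 0.28 to 0.98 and an adjusted p of 0.0423. Every diabetic muscle was above every normal one, and the lowest of the diabetic values, on replicate 3, exceeded the highest normal value. The call lay close to the threshold. It was lost with no filter (adjusted p = 0.055), with no trend in the variance prior (0.071) and in 5 of the 6 fits that left out 1 array, where the adjusted p ran from 0.048 without diabetic replicate 3 to 0.14.

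The annotated starts of Hnrnpf are shown because it is the gene that passed, and that of Hnrnpa1 because its brightest probe set had the largest fold change. The 250 bases before each start are from RefSeq on GRCr8, all on the plus strand. The windows of Hnrnpf are chr4:152755418-152755667, chr4:152768149-152768398 and chr4:152768479-152768728, and that of Hnrnpa1 is chr7:136253868-136254117. Capitals mark, on either strand, the CCAAT box with the letters CCAAT, the GC box with the letters GGGCGG and the TATA box with the letters TATAAA.
Hnrnpf start 1: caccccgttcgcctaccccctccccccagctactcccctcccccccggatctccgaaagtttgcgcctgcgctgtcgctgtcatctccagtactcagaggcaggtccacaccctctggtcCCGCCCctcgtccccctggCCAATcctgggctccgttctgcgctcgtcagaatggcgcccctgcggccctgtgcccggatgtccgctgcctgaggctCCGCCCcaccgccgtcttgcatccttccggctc
Hnrnpf start 2: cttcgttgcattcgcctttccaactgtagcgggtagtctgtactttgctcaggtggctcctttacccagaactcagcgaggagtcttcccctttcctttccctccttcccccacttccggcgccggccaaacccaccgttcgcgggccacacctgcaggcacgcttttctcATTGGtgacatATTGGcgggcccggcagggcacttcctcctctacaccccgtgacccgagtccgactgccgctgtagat
Hnrnpf start 3: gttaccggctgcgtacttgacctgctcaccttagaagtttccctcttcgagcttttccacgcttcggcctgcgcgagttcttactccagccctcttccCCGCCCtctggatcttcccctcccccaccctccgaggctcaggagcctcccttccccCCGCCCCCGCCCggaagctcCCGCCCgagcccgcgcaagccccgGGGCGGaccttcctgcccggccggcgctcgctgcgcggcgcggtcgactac
Hnrnpa1: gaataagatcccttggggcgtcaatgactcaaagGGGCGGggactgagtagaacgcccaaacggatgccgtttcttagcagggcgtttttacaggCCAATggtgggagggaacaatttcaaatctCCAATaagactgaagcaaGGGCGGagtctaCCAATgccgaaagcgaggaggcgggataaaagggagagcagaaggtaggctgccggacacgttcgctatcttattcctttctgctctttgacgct
The windows of Hnrnpf at starts 1 and 3 were 69.2% and 70.0% G and C, and that of Hnrnpa1 52.0%. The window at start 1 of Hnrnpf held 1 CCAAT box and 2 GC boxes, start 2 held 2 CCAAT boxes, and start 3 held 5 GC boxes, whereas Hnrnpa1 held 3 CCAAT boxes and 2 GC boxes. A TATA box was in none of the 4. Of the 49 member genes with a window, 25 (51.0%) held a CCAAT box, against 36.9% of 18999 protein-coding genes, and 28 (57.1%) held a GC box, against 41.4%. A TATA box was in 5 genes (10.2% against 13.2%) and an E-box, with the letters CACGTG, in 5 (10.2% against 6.75%). These are matches of letters on both strands in a fixed window, with no test, and the arrays carry no measurement of binding at them.

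Among the remaining hnRNPs, Hnrnpa1, which coats nascent RNA and binds silencers of exon use, had the largest fold change of the 47 genes by its brightest probe set, but not by the mean over its probe sets, which gave a log2 fold change of 0.48 (adjusted p = 0.176), below those of Prpf39, Hnrnph3, Hnrnpf, Sf3b6 and Snrpb2. The brightest probe set gave 602, 934 and 534 in normal and 909.8, 1426 and 1521 in diabetic diaphragm. The ratio of means was 1.86 and the log2 fold change 0.91 ± 0.25 (SE), with an adjusted p of 0.059. Diabetic replicate 1 lay just under normal replicate 2, so the groups overlapped. The gene passed at an adjusted p of 0.0315 when that normal array was left out and of 0.0376 when that diabetic array was. A second probe set gave 621, 792 and 614 in normal and 918, 925 and 944 in diabetic muscle, without overlap and at a ratio of 1.38 (adjusted p = 0.11). The remaining, dim probe set of the gene gave 0.075 on the log2 scale (adjusted p = 0.909). Rodent genomes hold many processed copies of Hnrnpa1, and cross-hybridisation to them was not tested.

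Hnrnph3, of the same family as Hnrnpf, had signals of 246, 313 and 162 in normal and 334, 373 and 390.4 in diabetic muscle. The normal values spread widely but stayed below the diabetic ones, at a ratio of 1.52, a log2 fold change of 0.65 and an adjusted p of 0.13. Without normal replicate 3, the lowest, the log2 fold change was 0.40 (adjusted p = 0.317). Hnrnpd, also known as Auf1, binds AU-rich elements and takes part in the decay of messenger RNA. Its signals were 543, 668 and 687 in normal and 725, 865 and 896 in diabetic muscle, a ratio of 1.31 (adjusted p = 0.187), and normal replicate 1 was the lowest by a clear margin. Hnrnpu, a large nuclear protein that binds RNA and chromatin, gave 2269.9, 2275 and 1963 in normal and 2700.5, 2641 and 3308 in diabetic muscle, a ratio of 1.33 (adjusted p = 0.14). Its other probe sets did not share 1 direction, with log2 fold changes of -0.11 and 0.38.

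Hnrnpa2b1, a close relative of Hnrnpa1 that binds and carries RNA, was the member with the groups apart in the opposite direction. Its signals were 1858, 2229 and 1719 in normal and 1618, 1432 and 1414 in diabetic diaphragm, with means of 1935 ± 263 and 1488 ± 113 (SD, n = 3). The log2 fold change was -0.37 ± 0.16 (SE), with an interval of -0.72 to -0.03 and an adjusted p of 0.178. The highest diabetic value, on replicate 1, was below the lowest normal value, on replicate 3. The log2 fold change of its second probe set was -0.08 (adjusted p = 0.88). Hnrnpc, which binds runs of uridine, had a similar log2 fold change of -0.37 ± 0.21 (SE), but its diabetic signals of 1921, 3001 and 1686 spanned the normal ones of 2769, 2924 and 2607 (adjusted p = 0.301).

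Of the other hnRNPs, Hnrnpa3, a protein of the A/B family, had 4 tested probe sets. All 4 had a positive log2 fold change, at 0.36, 0.54, 0.42 and 0.20, with adjusted p values of 0.229, 0.0575, 0.169 and 0.504. The signals of its second were 1934.6, 2235 and 1824 in normal and 2716, 3190.3 and 2793 in diabetic muscle, without overlap. Hnrnpdl, a paralog of Hnrnpd, had diabetic signals of 3099, 3342 and 3462, all above the normal 2468, 2813 and 2363, at a ratio of 1.29 (adjusted p = 0.14). The groups overlapped for its second probe set, whose log2 fold change was 0.15 (adjusted p = 0.638). Hnrnpul1, Hnrnpab, Hnrnpl, Hnrnpm and Hnrnph1 had log2 fold changes of 0.41, 0.24, 0.087, 0.083 and 0.031, and Hnrnpa0 and Hnrnpr of -0.016 and -0.13. None of these 7 had an adjusted p under 0.3.

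**Figure D3:**
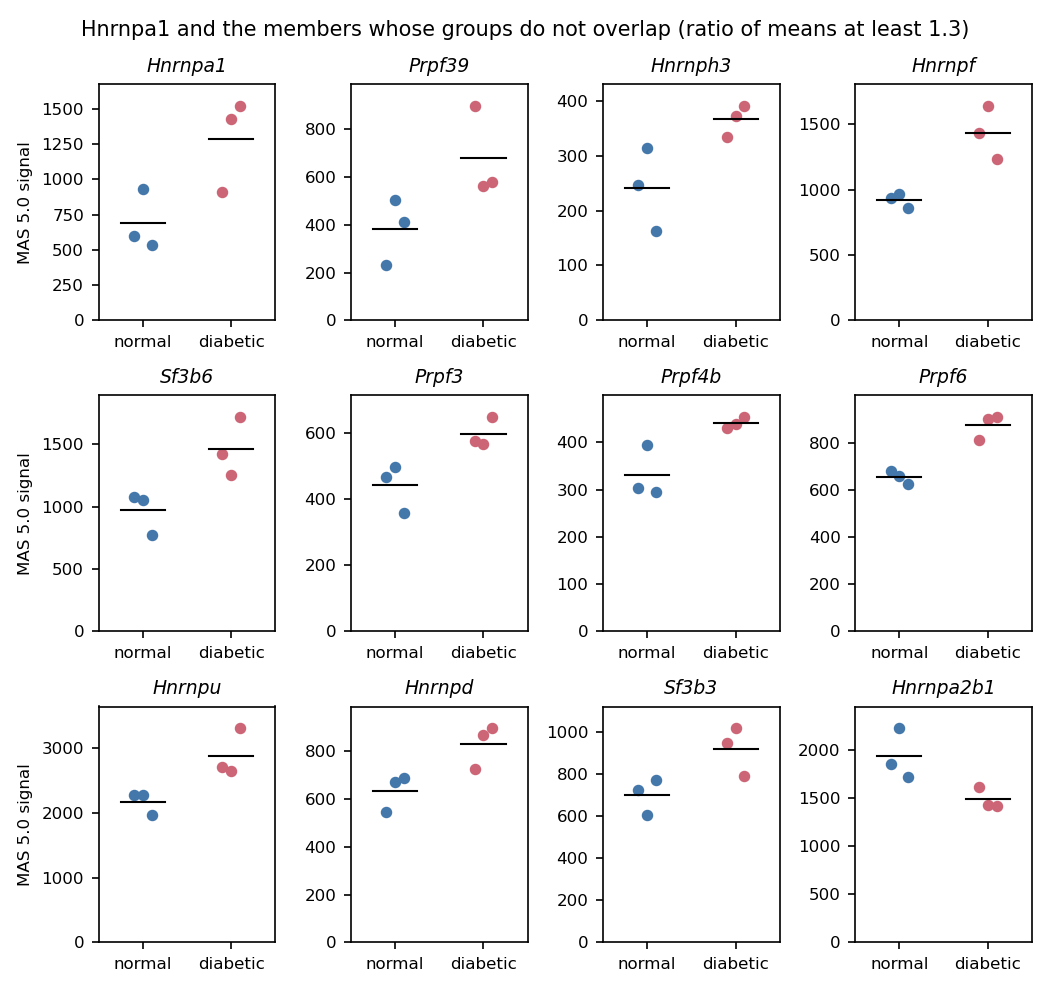
MAS 5.0 signal (vertical axis, linear from 0) of Hnrnpa1 and of the 11 genes whose groups did not overlap at a ratio of means of at least 1.3 either way; each point is 1 rat, placed from left to right as replicates 1 to 3, and the line is the group mean. Hnrnpa2b1 alone has the diabetic points below the normal ones, and in Hnrnpa1 a diabetic point at 909.8 lies under a normal point at 934.

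None of the 6 SR proteins tested passed, and none had its groups apart, where 15.9% of all genes were apart upward and 14.9% downward. Srsf2, which binds exonic enhancers and also acts in transcription, had the lowest log2 fold change of the class. Its signals were 2799, 2228 and 2952 in normal and 2281, 2617 and 1895 in diabetic muscle, a log2 fold change of -0.23 with a 95% interval of -0.62 to 0.15 (adjusted p = 0.457). Srsf5 had the highest, with 2132, 2438 and 1824 in normal and 2749, 2208 and 2512 in diabetic muscle and a log2 fold change of 0.23 with an interval of -0.13 to 0.59 (adjusted p = 0.433). In both genes the ranges of the groups crossed. Srsf1, the founding member of the family, had a log2 fold change of -0.21 and Srsf6 of -0.13. Srsf9 and Srsf11 lay close to 0, at -0.0038 and 0.017. The intervals of these 6 genes allowed changes in either direction, for Srsf11 from -0.49 to 0.52. Srsf10, a splicing repressor when dephosphorylated, lay under the filter at a mean of 102.8 in normal and 106.5 in diabetic muscle and was not tested.

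Among the snRNP proteins, Snrpb2, the B'' protein of the U2 snRNP, had the largest fold change. Its signals were 289.5, 508 and 332 in normal and 562, 631 and 472 in diabetic diaphragm, a ratio of 1.47 with a log2 fold change of 0.59 ± 0.22 (SE) and an adjusted p of 0.143. Normal replicate 2 lay above diabetic replicate 3, and without that normal array the gene passed at an adjusted p of 0.0499. Snrpe, a protein of the Sm ring, was the 1 gene of the class with its groups apart, at 2180.5, 2593 and 2341 in normal and 2789.6, 2708 and 3179 in diabetic muscle (ratio 1.22, adjusted p = 0.258). This is 16.7% of the 6 tested, near the 15.9% of all genes that were apart upward. Snrpb, another Sm protein, had the lowest log2 fold change, -0.05, with signals of 1986, 1744 and 2113 in normal and 1801, 2225 and 1659 in diabetic muscle and full overlap. The Sm proteins Snrpd2 and Snrpd3 and the U2 protein Snrpa1 had log2 fold changes of 0.19, 0.12 and 0.25. Snrpa and the single-gene probe set of Snrpn were under the filter and not tested. Brighter probe sets that Snrpn shares with Snurf are not counted in this class. Their log2 fold changes were -0.61 and -0.58, and neither passed.

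All 7 tested subunits of SF3, the complex that holds the U2 snRNP at the branch point, had a positive log2 fold change, and none passed. Sf3b6, the small subunit that lies against the branch point adenosine, had signals of 1079, 1052 and 776 in normal and 1419, 1253 and 1719 in diabetic muscle. The means of 969 ± 168 and 1464 ± 236 (SD, n = 3) gave a ratio of 1.51 and a log2 fold change of 0.60 ± 0.19 (SE), with an interval of 0.19 to 1.01 and an adjusted p of 0.0841. The groups did not overlap, as was so for Sf3b3 and Sf3a3, where 15.9% of all genes were apart upward. Sf3b3, a scaffold subunit, had 722, 605 and 771 in normal and 944, 1018 and 789 in diabetic muscle (ratio 1.31, adjusted p = 0.192), and here diabetic replicate 3 only just exceeded normal replicate 3. Sf3a3, of the SF3A complex, had a ratio of 1.15 (adjusted p = 0.484). Sf3b1, the largest subunit, and Sf3b4 and Sf3b5 had log2 fold changes of 0.16, 0.081 and 0.094. Sf3b2 had the smallest by its brightest probe set, 0.06, with overlapping signals of 1397, 1342 and 1290.4 in normal and 1469.8, 1448 and 1299.6 in diabetic muscle. Its second probe set gave 0.28, and the mean over its probe sets 0.17, so it was not the smallest by that mean. Sf3a1 was under the filter and was not tested.

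The U2AF genes were the class with both signs negative, and neither passed. U2af2, the large subunit that binds the pyrimidine tract, had signals of 837, 1328 and 889 in normal and 835, 1073 and 899.6 in diabetic muscle. Its log2 fold change was -0.10, with an interval of -0.55 to 0.35, and it turned positive, at 0.11, without normal replicate 2. U2af1l4, a relative of the small subunit, had 588, 483 and 541 in normal and 549, 412 and 451 in diabetic muscle, with a log2 fold change of -0.20 and an interval of -0.58 to 0.18. The groups overlapped in both genes.

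The PRPF factors held 4 genes of 10 with their groups apart, all upward with a ratio of at least 1.3 and none past the threshold. Over all genes 11.6% were apart upward at that ratio. Prpf39, a protein of the U1 snRNP, had the largest fold change of the class, with 231, 502 and 413 in normal and 897, 563 and 578 in diabetic diaphragm. The ratio of means was 1.78 and the log2 fold change 0.87 ± 0.29 (SE), with an interval of 0.23 to 1.51 and an adjusted p of 0.102. Diabetic replicate 1 was well above the other two, and normal replicate 1 well below the other normal values. Without normal replicate 1 the log2 fold change was 0.54 (adjusted p = 0.258). Prpf3 and Prpf6 are proteins of the U4/U6.U5 tri-snRNP. Prpf3 gave 466, 497 and 357 in normal and 574, 567 and 647 in diabetic muscle (ratio 1.35, adjusted p = 0.155). Prpf6 gave 682, 660.2 and 626 in normal and 810.2, 902 and 908 in diabetic muscle (ratio 1.33, adjusted p = 0.123). Every diabetic value was above every normal one in both genes.

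Prpf4b, a protein kinase of the spliceosome, had signals of 304, 396 and 296 in normal and 429.7, 439 and 454 in diabetic muscle (ratio 1.33, adjusted p = 0.171). The diabetic values were tight, with an SD of 12.3, and normal replicate 2 came closest to them. Prpf19, a ubiquitin ligase needed for spliceosome activation, lay lowest in the class, with 1284, 963 and 1129.7 in normal and 928, 1250.2 and 874 in diabetic muscle and a log2 fold change of -0.15 with an interval of -0.57 to 0.26. Its groups overlapped broadly. Prpf8, the central scaffold of the catalytic spliceosome, had a log2 fold change of 0.16 with an interval of -0.17 to 0.48. The second-step factor Prpf18 and Prpf38b, Prpf38a and Prpf40b had log2 fold changes of 0.22, 0.090, 0.050 and -0.0078.

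Probe sets of the same gene were set against each other. Of 10 genes with more than 1 tested probe set, 24 probe sets in all, 5 had every probe set positive (Hnrnpa1, Hnrnpa3, Hnrnpdl, Sf3b1 and Sf3b2) and 4 every one negative (Hnrnpa2b1, Srsf1, Srsf2 and Srsf6). For Srsf1 this is no real agreement, since its second probe set had a log2 fold change of -0.00043 and a ratio of means of 1.006. In Hnrnpu the signs were mixed. Of the 51 genes, 37 had 1 single-gene probe set on the array, so no such comparison could be made for them.

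The further genes of the splicing machinery on a list of 148, without the 51 above, were examined in the same fit. On the array were 113 of them and 109 were tested. Of these 4 rose, none fell and 105 did not pass, a share called of 3.67%, near the 3.46% of all genes that rose and below the 7.01% that passed in either direction. At an unadjusted p under 0.05, 17 were higher and 2 lower, where 12.8% and 11.9% of all genes were. Their median log2 fold change was 0.14, with 76 positive and 33 negative signs. By group it was 0.39 for 7 splicing kinases, 0.29 for 12 helicases and the GTPase, 0.27 for 23 Prpf19 complex and step factors, 0.19 for 15 exon junction and RS-rich co-factors, 0.073 for 29 regulators of alternative splicing and 0.024 for 23 other snRNP and Lsm proteins.

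**Figure D4:**
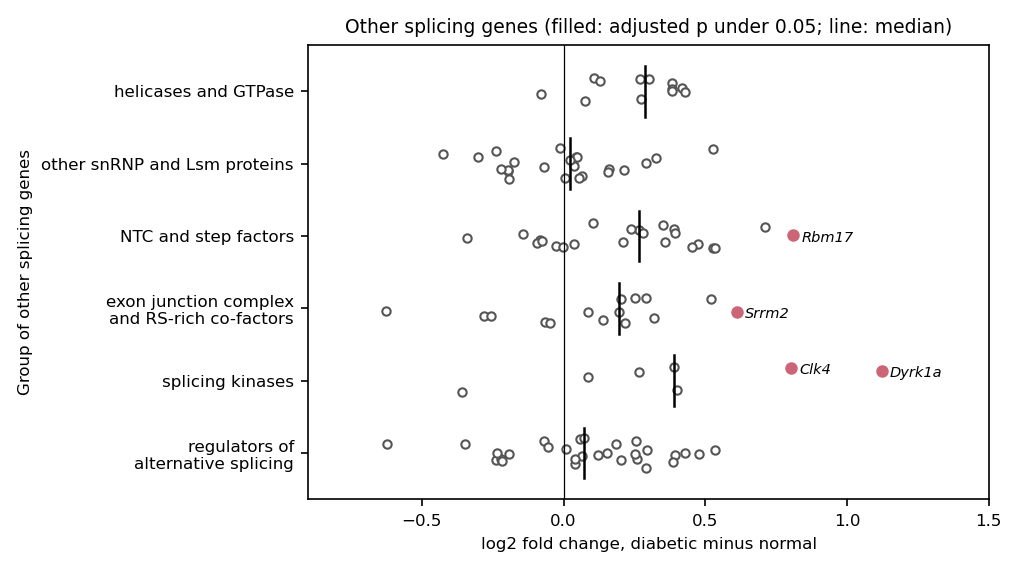
Log2 fold change (diabetic over normal, horizontal axis) of the 109 other tested splicing genes in 6 groups; filled points passed an adjusted p of 0.05, the line is the group's median, and the vertical scatter within a group has no meaning. The 4 filled points are Dyrk1a, Clk4, Rbm17 and Srrm2, all to the right of 0.

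Of the 4 genes that rose, 2 are kinases. Dyrk1a, a kinase that phosphorylates splicing factors among other substrates, had signals of 495, 449 and 321 in normal and 893, 852 and 967 in diabetic diaphragm, a ratio of 2.14 with a log2 fold change of 1.12 ± 0.19 (SE) and an adjusted p of 0.00807. It passed in all 6 fits that left out 1 array. The study had selected this gene on these same arrays, so its value is not independent evidence, and without it the share called was 2.78% of 108. Clk4, a kinase that phosphorylates SR proteins, had 319, 411 and 281 in normal and 484, 597 and 677 in diabetic muscle (ratio 1.74, adjusted p = 0.0398). In both kinases the groups did not overlap.

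Rbm17, also known as SPF45, takes part in the choice of the 3′ splice site. Its signals were 356, 506 and 434 in normal and 612, 748 and 922 in diabetic muscle (ratio 1.76, adjusted p = 0.04). Srrm2, a large RS-rich scaffold of nuclear speckles, gave 624, 693 and 546 in normal and 917, 944 and 971 in diabetic muscle (ratio 1.52, adjusted p = 0.0429), again with the groups apart. The groups overlapped for a second probe set of Srrm2, whose log2 fold change was 0.31 (adjusted p = 0.466). Clk4 and Rbm17 each lost their call in 4 of the 6 fits that left out 1 array, where the adjusted p reached 0.122 and 0.129, and Srrm2 in all 6, at 0.053 to 0.119. With no filter, or with no trend in the variance prior, Dyrk1a alone of the 4 passed. Srrm2 also missed the threshold when arrays were scaled to the same median (adjusted p = 0.0564) and by the mean over its probe sets (log2 fold change 0.46, adjusted p = 0.144).

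Several regulators known for splicing in muscle did not pass, and they are named here after their values were seen. Mbnl1 and Mbnl2, the muscleblind proteins, had log2 fold changes of 0.057 and -0.22, Celf1 of -0.068, Rbm24 of -0.24, Ptbp1 of 0.26 and Rbfox2 of 0.15. Of the 109 other splicing genes, 24 had every diabetic array above every normal one, where 15.9% of all genes did, and 3 had every diabetic array below, where 14.9% of all genes did. The 3 were Ncbp2, Khdrbs3 and Srpk2, likewise named after their values were seen.

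Other gene groups concerned with RNA and protein synthesis gave positive medians too. The 43 tested genes of cytosolic ribosomal proteins had a median log2 fold change of 0.28, with 37 positive signs, and the 55 translation factors one of 0.28, with 46 positive signs. Positive signs thus made up 86.0% and 83.6%, against 72.3% of the 47 splicing factors and hnRNPs. Every diabetic array lay above every normal one in 51.2% of the ribosomal protein genes and 34.5% of the translation factors. That share was 27.7% of the 47 genes and 15.9% of all genes. Every diabetic array lay below in 2 ribosomal protein genes, 4 translation factors and 1 of the 47. Of the ribosomal protein genes 4.65% passed and of the translation factors 5.45%, against 7.01% of all genes. No test was made of the difference between these groups and the splicing genes.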

How the data were processed

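Total RNA of diaphragm muscle from each of 6 rats (3 normal, 3 diabetic) had been hybridised to 1 Affymetrix RAE 230A array. The deposited values are probe set signals that the authors made with MAS 5.0 (named as MAS5 in the submitters' processing notes), a linear intensity brought to a common scale on each array. The settings of the software were not given in the sources used here. Detection calls were not used here. Signals under 1 (136 of the values) were raised to 1 before taking log2, and arrays were not normalized again. Of 15923 probe sets, the 57 controls and those with a mean at or below the 40th percentile (105.8) were left out, and the other 9519 entered limma 3.58.1 (R 4.3.3) with lmFit, eBayes with a trended prior, and the adjustment of Benjamini and Hochberg. The number of arrays limits the precision, with 4 residual degrees of freedom. No pair of arrays held identical values. Tables and figures were made with Python 3.11.15 and matplotlib 3.10.9, and the fit was tested on simulated data.

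Genes were named through the platform annotation, where 12783 probe sets had 1 gene, 312 several and 2771 none. Promoters came from the RefSeq table. Given in full are the genes that passed, members without overlap at a ratio of at least 1.3, and the largest and smallest log2 fold change of each class; other members given with signals by array (Hnrnpa3, Hnrnpc, Hnrnpdl and Snrpe) were chosen after their values were seen. The members, the gene lists and the tests were chosen with earlier results of these data known. Alternatives were quantile or median scaling, offsets of 16 or 64, no filter or one at the 60th percentile, no trend, array weights, a replicate block, leaving out each array, the mean over probe sets, and thresholds of an adjusted p of 0.1 or an unadjusted p of 0.05.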

Additional observations from a re-analysis of the deposited data

How the results depend on the processing

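Of the 47 members, 1 rose in the fit as reported. None rose with no filter, with no trend in the variance prior or with the replicate block, where 3.09%, 5.14% and 3.66% of all genes passed. With array weights 2 rose (Hnrnpf and Hnrnpa1), where 7.78% of all genes passed. At an adjusted p under 0.1, 3 rose (Hnrnpf, Hnrnpa1 and Sf3b6), where 12.5% of all genes passed. At an unadjusted p under 0.05, 13 were higher and 1 lower, where 12.8% and 11.9% of all genes were. These shares also stand beside the counts of other splicing genes given below. Leaving out 1 array gave 0 to 2 members higher, where 3.4% to 4.72% of all genes passed. Hnrnpa1 and Snrpb2 were past the threshold without normal replicate 2, Hnrnpa1 without diabetic replicate 1 and Hnrnpf without diabetic replicate 3. Of the other splicing genes, 4 rose as reported, 1 (Dyrk1a) with no filter, with no trend or with the block, 8 at an adjusted p under 0.1 and 17 at an unadjusted p under 0.05 (2 lower), and 1 to 4 with 1 array left out. With 1 array left out, the median of the SR proteins ran from -0.22 (without diabetic replicate 2) to -0.017 (without diabetic replicate 3), and that of the PRPF factors from 0.10 (without diabetic replicate 2) to 0.24. The SR median was -0.0038 with no filter and -0.13 with the filter at the 60th percentile. The log2 fold change of U2af2 was 0.11 without normal replicate 2, and that of Snrpb ran from -0.17 without diabetic replicate 2 to 0.044 without diabetic replicate 3, with 0.015 without normal replicate 3. The causes were not tested. Values of single genes kept their direction and side of the threshold in 378 cases, lost the call in 33, gained it in 18 and reversed in 3. Replicate numbers did not pair the arrays (correlations of deviations 0.098, -0.20 and -0.068), and with the block 259 of 7080 genes passed, against 496.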

Other observations

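A further 8 probe sets carried a member's symbol together with another gene's, so their signal cannot be ascribed to 1 gene. They named Hnrnpk and Srsf3 (2 probe sets each), Snurf with Snrpn (2), Snrpc and Snrpg, and none passed the test. Of the 8, 2 had a positive and 6 a negative log2 fold change. These are counts of probe sets, with some genes named more than once, and cannot be set against the counts of member genes. The pair for Snurf and Snrpn, which share a transcript, had log2 fold changes of -0.61 (adjusted p = 0.141) and -0.58 (adjusted p = 0.124, limma with Benjamini-Hochberg adjustment). Those of Hnrnpk were -0.0087 and -0.11 and those of Srsf3 0.14 and -0.37.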
